A study of Caenorhabditis elegans with 2 samples.

Results

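In young adult nematodes (Caenorhabditis elegans), a peak of the RNA polymerase III subunit RPC-1 was called at 1294 nuclear sites. Of these, 291 lay away from protein-coding 5' ends and from annotated small RNA genes, including those at which this polymerase is usually found. Called distal peaks here, they were chosen by their presence in the authors' list of peaks above a reproducibility threshold, with the summit over 500 bp from every protein-coding 5' end, no overlap with a gene of biotype ncRNA, and no tRNA, tRNA pseudogene, snoRNA, miRNA, snRNA, rRNA, signal recognition particle, RNase P, RNase MRP or Y RNA gene within 500 bp. The whole list held 1320 peaks, of which 26 were mitochondrial and left out. Because the choice used the threshold on signal, the signal values are given as a description with no test.

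RNA polymerase III makes tRNAs and other short structured RNAs, and RPC-1 is its largest subunit. Most tRNA genes carry their promoter inside the transcribed sequence, as an A box near the start and a B box further in, which are read by the factor TFIIIC, and transcription ends at a run of thymines. Sequences derived from tRNA genes are scattered through animal genomes as pseudogenes and as parts of short repeats, and some keep their boxes. The arms of C. elegans autosomes are known to hold more repeats and fewer essential genes than the centres.

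The data were 2 biological replicates of 1 group, chromatin immunoprecipitation from entire mixed-sex worms of the wild-type strain N2, with rpc-1 given as the antibody's name and no treatment or second genotype. The control library behind the peak calls is not analysed here. Whole worms pool every tissue, so occupancy in all cells and occupancy in a few of them cannot be told apart. Read depth is unknown, and shares below carry exact (Clopper-Pearson) 95% intervals for counting error only.

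The sequences that carry the main pattern are those in which tRNA-like promoter boxes lie under a distal peak. They were read from the RefSeq sequence of build WBcel235 (ce11), 5' to 3' on the strand of the boxes, and peaks are numbered by signal among the 291. The B box was searched as GGTTCNANNCC with a purine at position 6, and the A box as TNGCNNANNNG with purines at positions 2 and 8, on both strands. Capitals mark the boxes, each exact or with 1 mismatch.

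The first set is the group of the strongest distal peaks that resemble 1 annotated tRNA pseudogene, K10B2.t1, shown last.
Peak 1, chrII:8441608-8441722, minus strand: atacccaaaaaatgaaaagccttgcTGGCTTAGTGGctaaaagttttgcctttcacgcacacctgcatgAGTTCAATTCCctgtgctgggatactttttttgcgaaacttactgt
Peak 3, chrV:5667440-5667554, minus strand: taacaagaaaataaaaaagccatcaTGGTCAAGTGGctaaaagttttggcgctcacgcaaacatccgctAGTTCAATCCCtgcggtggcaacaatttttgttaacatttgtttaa
Peak 13, chrII:5353789-5353903, minus strand: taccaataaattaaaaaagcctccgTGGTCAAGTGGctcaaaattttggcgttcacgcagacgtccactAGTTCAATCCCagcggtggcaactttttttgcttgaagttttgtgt
Peak 15, chrV:5592058-5592171, plus strand: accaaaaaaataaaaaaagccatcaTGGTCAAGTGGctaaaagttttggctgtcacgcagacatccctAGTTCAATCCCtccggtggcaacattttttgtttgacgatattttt
K10B2.t1, chrII:6358367-6358438, minus strand: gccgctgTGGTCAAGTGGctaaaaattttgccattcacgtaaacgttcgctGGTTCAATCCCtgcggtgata

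The second set shows the 2 largest groups by match, each with its annotated pseudogene.
Peak 2, chrV:53458-53572, plus strand: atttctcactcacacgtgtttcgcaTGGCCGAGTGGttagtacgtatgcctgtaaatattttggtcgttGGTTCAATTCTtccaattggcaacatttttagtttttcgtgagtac
Peak 43, chrIII:1354698-1354813, plus strand: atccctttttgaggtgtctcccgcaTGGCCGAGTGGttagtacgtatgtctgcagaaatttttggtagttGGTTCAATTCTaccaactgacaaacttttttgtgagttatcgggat
Y94H6A.t1, chrIV:2740214-2740286, plus strand: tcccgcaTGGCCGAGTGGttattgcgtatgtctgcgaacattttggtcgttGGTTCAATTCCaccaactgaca
Peak 42, chrX:2696715-2696829, minus strand: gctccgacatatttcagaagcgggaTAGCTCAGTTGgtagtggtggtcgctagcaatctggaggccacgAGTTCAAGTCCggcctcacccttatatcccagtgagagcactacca
Peak 46, chrX:5309742-5309856, minus strand: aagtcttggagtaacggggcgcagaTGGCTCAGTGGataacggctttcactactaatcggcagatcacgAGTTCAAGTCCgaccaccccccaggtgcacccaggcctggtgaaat
F53B1.t1, chrX:2125762-2125833, minus strand: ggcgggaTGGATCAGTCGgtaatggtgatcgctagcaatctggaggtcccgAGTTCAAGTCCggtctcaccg

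The third set holds both boxes without a mismatch, except that peak 7 has 1 in its A box. Peaks 19 and 29 also matched an annotated tRNA pseudogene, and peaks 23 and 7 did not.
Peak 19, chrIII:2031299-2031413, minus strand: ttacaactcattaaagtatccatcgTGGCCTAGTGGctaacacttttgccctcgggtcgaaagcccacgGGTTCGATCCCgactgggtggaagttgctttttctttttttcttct
Peak 29, chrIII:89271-89384, minus strand: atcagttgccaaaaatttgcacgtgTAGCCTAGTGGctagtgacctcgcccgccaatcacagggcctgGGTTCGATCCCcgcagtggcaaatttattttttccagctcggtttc
Peak 23, chrX:1939372-1939485, minus strand: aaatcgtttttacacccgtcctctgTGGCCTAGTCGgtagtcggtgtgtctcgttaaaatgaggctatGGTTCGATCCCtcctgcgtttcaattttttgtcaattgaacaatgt
Peak 7, chrX:4453253-4453366, plus strand: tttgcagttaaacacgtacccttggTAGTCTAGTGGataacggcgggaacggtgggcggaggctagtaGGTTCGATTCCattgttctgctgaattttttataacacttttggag

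The fourth set shows a different kind of sequence, arrays of heat shock elements, the binding sites of heat shock factor, in which GAA and TTC units alternate at a spacing of 2 bp. Capitals mark the units of elements with at least 3 units in a row. Peak 83 has the most elements, 44 in its 300 bp window, and peak 36 is the strongest array with a regular repeat.
Peak 36, chrII:301493-301652, plus strand: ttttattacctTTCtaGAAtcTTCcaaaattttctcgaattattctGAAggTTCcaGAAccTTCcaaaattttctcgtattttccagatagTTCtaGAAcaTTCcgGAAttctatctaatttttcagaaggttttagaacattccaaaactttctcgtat
Peak 83, chrIV:13668111-13668270, plus strand: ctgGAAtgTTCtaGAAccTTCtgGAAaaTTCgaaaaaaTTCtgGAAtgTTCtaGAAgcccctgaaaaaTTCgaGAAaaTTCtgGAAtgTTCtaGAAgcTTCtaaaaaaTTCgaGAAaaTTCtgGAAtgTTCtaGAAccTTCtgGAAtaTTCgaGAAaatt

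The last sequence is the strongest distal peak that had neither kind of sequence and no B box within 1 mismatch, so it carries no capitals.
Peak 4, chrX:1837831-1837950, plus strand: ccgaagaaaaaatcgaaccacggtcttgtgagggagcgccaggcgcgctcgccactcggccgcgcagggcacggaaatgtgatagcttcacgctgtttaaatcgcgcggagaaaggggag

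Of the 291 distal peaks, 111 (38.1%, interval 32.5 to 44.0%) matched an annotated nuclear tRNA gene or tRNA pseudogene elsewhere in the genome in 300 bp at the summit, at a BLAST E-value up to 1e-05. These are called tRNA-like. A further 40 (13.7%, interval 10.005 to 18.2%) held an array of at least 3 heat shock elements in the same window, none of them tRNA-like. The remaining 140 had neither. The same rule for 5' ends and small RNA genes was met by 247924 of 334240 end-to-end windows of 300 bp in the nuclear genome (74.2%), called eligible windows, and among these 0.39% were tRNA-like and 0.292% held an array. Both groupings were chosen after the sequences under the peaks had been seen.

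Both kinds were rarer at promoter-proximal peaks and below the threshold, while tRNA-like sequence was commoner at annotated tRNA genes and tRNA pseudogenes. It was rarer at snoRNA genes (2 of 68 peaks, 2.94%). It was also rarer (26 of 132, 19.7%) among annotated peaks that overlapped no tRNA gene, tRNA pseudogene or snoRNA gene. Each of these 132 lay within 500 bp of a small RNA gene, tRNA genes included, or overlapped an ncRNA gene. Among 207 promoter-proximal peaks, which met the same rule apart from the distance to a 5' end, 19 (9.18%) were tRNA-like and 8 (3.86%) held an array. Among 13064 regions of the pooled relaxed list that met the rule but not the threshold, the shares were 1.60% and 0.781%. Of the 1003 other nuclear peaks, which include the promoter-proximal ones, 618 (61.6%) were tRNA-like and 9 held an array. Peaks on tRNA genes (95.6%) and on tRNA pseudogenes (100%) could match the annotated gene under them. Those shares, and most of the 61.6%, therefore largely follow from the definition and are not comparable with the distal share. In replicate 1's own list, cut to its 1320 strongest regions and put under the same rule, there were 312 distal peaks, and the tRNA-like and array shares were 23.7% and 4.81%. In replicate 2's own list the 320 distal peaks gave 37.2% and 16.6%, so both shares were lower when replicate 2 was left out.

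**Figure D1:**
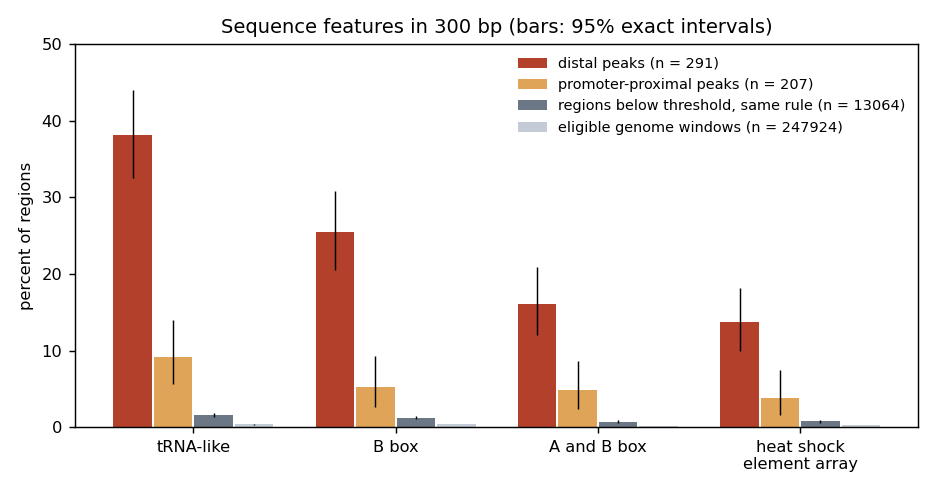
Percent of regions (vertical axis) with each of 4 sequence features in 300 bp, for the 291 distal peaks, 207 promoter-proximal peaks, 13064 regions below the threshold under the same rule and 247924 eligible genome windows; lines are exact 95% intervals for counting error. Among these 4 sets distal peaks have the highest bar for every feature, 38.1% for tRNA-like sequence against 0.39% of windows.

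The promoter boxes themselves were counted without reference to tRNA genes. An exact B box lay in the 300 bp of 74 distal peaks (25.4%, interval 20.5 to 30.8%), against 0.459% of eligible windows, 11 of 207 promoter-proximal peaks (5.31%) and 1.28% of the regions below the threshold. Peaks at annotated genes had similar or higher shares, 22.1% at snoRNA genes (n = 68), 84.8% at tRNA pseudogenes (n = 33) and 52.3% over the 1003 other nuclear peaks. An A box that starts 25 to 100 bp before the B box on the same strand, the arrangement of a tRNA gene, was present in 47 (16.2%, interval 12.1 to 20.9%), against 0.172% of windows. In 43 of the 47 a run of at least 4 thymines followed within 100 bp. The same run followed in 379 of the 427 eligible windows with both boxes, so it was not particular to the peaks. With 1 mismatch allowed in the B box, 171 distal peaks (58.8%) had one, against 5.96% of windows, so the looser motif was also common in sequence without a peak. The A box alone was in 141 (48.5%), against 7.56% of windows. The B box share was 15.7% and the share with both boxes 9.62% by replicate 1 alone, and they were 25.3% and 15.9% by replicate 2 alone.

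Within the 300 bp searched at the summit, the B box mostly lay close to the summit. Where a window had several, one paired with an A box was preferred, then the nearest, so part of the closeness follows from the search. The B box was within 50 bp in 54 of the 74 peaks (73.0%), with a median distance of 37 bp. At peaks on annotated tRNA genes 327 of 442 (74.0%) were that close, with a median of 42 bp. Neither strand was favoured in number, with 38 B boxes on the plus strand and 36 on the minus strand. The side was not even, at least in the 20 strongest peaks with both boxes. There the B box lay 3' of the summit on its own strand, except in the snf-3 intron. In introns with 1 host gene, 15 ran in the direction of the host and 12 against it.

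**Figure D2:**
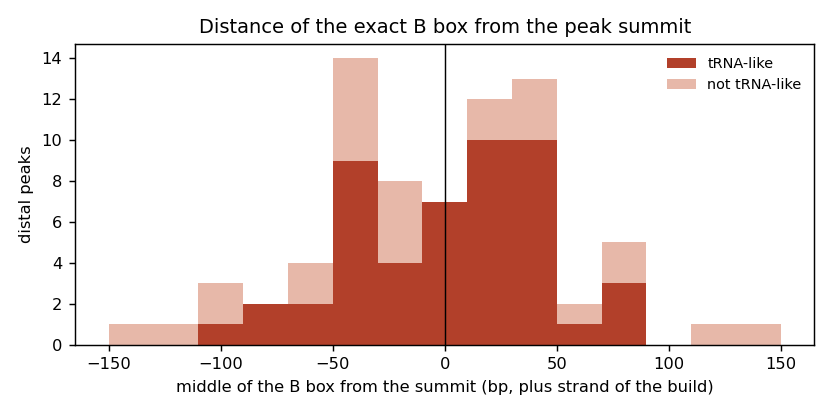
Number of distal peaks (vertical axis) by the distance in bp from the summit to the middle of the exact B box (horizontal axis, bins of 20 bp), for the 74 peaks with one, split by whether the window is tRNA-like. Of the 74, 54 lie within 50 bp and 19 within 20 bp, and the axis follows the plus strand of the build.

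The tRNA-like distal peaks resembled pseudogenes and seldom tRNA genes. The best match was an annotated tRNA pseudogene for 110 of the 111 and a tRNA gene, Y113G7B.t1, for 1, over 46 different best matches. The type of best match was not counted over all 968 tRNA-like eligible windows. This share is therefore not shown to be particular to the peaks. The rule also left out sequence within 500 bp of annotated tRNA genes and tRNA pseudogenes. Identity to the best match ran from 74.6 to 97.2% (median 85.7%) over 39 to 74 bp (median 66 bp). An exact B box was present in 49 of the 111 and one within 1 mismatch in 105. Their signal ran from 35.6 to 770 with a median of 59.0. Annotated tRNA pseudogenes with a peak had a median of 62.4 (n = 33) and tRNA gene peaks a median of 330 (n = 563).

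The best matches F53B1.t1 and Y94H6A.t1 took 24 distal peaks each. Those matching Y94H6A.t1 lay on all 6 chromosomes, with signals from 37.3 to 710 (median 65.7), and those matching F53B1.t1 lay on 5, with 12 of the 24 on the X chromosome and signals from 35.7 to 147 (median 51.1). No member of either group had an exact B box, but 21 of the Y94H6A.t1 group and 22 of the F53B1.t1 group had one within 1 mismatch. Y94H6A.t1 itself (chromosome IV, 2740214 to 2740286) had a peak with a signal of 45.4, and F53B1.t1 (chromosome X, 2125762 to 2125833) had none. Most eligible windows with either of them as best match met no peak. Such windows are not a count of copies, since a copy can span neighbouring windows. Copies near 5' ends or small RNA genes were left out. Of 77 eligible windows with Y94H6A.t1 as best match 27 met a thresholded peak, and of 187 with F53B1.t1 as best match 25 did. The median window had 47.4% of its 32-mers unique in the genome in the Y94H6A.t1 group and 80.9% in the F53B1.t1 group, and the part of uncertain read placement in these counts was not tested.

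The distal peaks related to K10B2.t1 were few and had high signals. Peak 1 (chromosome II, 8441522 to 8441891) lay in an intron of lips-10, a lipase-related gene, with a signal of 770 in the thresholded list, 293 in replicate 1's own list (rank 13 of 30000) and 481 in replicate 2's (rank 46). Peak 3 (chromosome V, 5667343 to 5667683, between genes) had 580.2, with 178 (rank 135) in replicate 1 and 411 (rank 91) in replicate 2. Peak 13 (chromosome II, 5353703 to 5354043, between genes) had 389, with 111 (rank 364) and 284 (rank 260). These ranks placed all 3 near the top of both replicates' lists. Peak 15 (chromosome V, 5591940 to 5592234), 613 bp from the 5' end of vps-37, a gene for an endosomal sorting subunit, had 351, with 111 (rank 361) in replicate 1 and 242 (rank 344) in replicate 2. The pseudogene K10B2.t1 (chromosome II, 6358367 to 6358438) had a peak of its own with a signal of 206. Of 5 eligible windows with K10B2.t1 as best match, 4 met a peak. Aligned pairs of the 4 distal copies were 76.7 to 86.7% identical over 103 to 257 bp. Peak 1 was the least similar, aligned with peak 15 alone (76.7% over 103 bp). Its match to K10B2.t1 was near the limit, with an E-value of 6.23e-06 over 52 bp.

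The other strong tRNA-like peaks are set out next. Peak 2 (chromosome V, 53295 to 53693), in an intron of the chemoreceptor gene srt-52, had a signal of 710, with 210.0 (rank 73) in replicate 1 and 497 (rank 40) in replicate 2. It stood far above the rest of its group, whose next member, peak 39, had 149.5. Peak 14 (chromosome IV, 2657331 to 2657659) lay in an intron of gfrl-1, related to receptors for glial cell line-derived neurotrophic factor. Beside it lay peak 22 (2656791 to 2657113), with a signal of 248 and an exact B box. Peak 22 was not tRNA-like at the limit used, but matched the tRNA pseudogene Y69A2AR.t1 over 66 bp at an E-value of 0.000265. Peak 14, with an exact B box and Y22D7AR.t1 as best match, had 382, with 144 (rank 242) in replicate 1 and 257 (rank 314) in replicate 2. Peak 17 (chromosome IV, 2665639 to 2665959, near Y69A2AR.1) had 322, with 104 (rank 393) and 229.9 (rank 372), and no B box within 1 mismatch. Clusters of this kind were a minority, since 76 of the 291 distal peaks lay within 10000 bp of another.

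Peaks with both boxes in the arrangement of a tRNA gene were mostly tRNA-like, 38 of 47. All 38 had the run of thymines, which most eligible windows with both boxes also had. Peak 19 (chromosome III, 2031201 to 2031573), 9793 bp from the 5' end of ckr-2, a cholecystokinin receptor gene, had a signal of 298, with 99.96 (rank 416) in replicate 1 and 241 (rank 345) in replicate 2. Peak 31 lay next to it (chromosome III, 2030817 to 2031149) with 178, and both had Y22D7AR.t1 as best match. Peak 29 (chromosome III, 89234 to 89490), near the mitochondrial ribosomal protein gene mrpl-40, had 185, with 63.1 (rank 587) in replicate 1 and 121 (rank 604) in replicate 2. Peak 49 (chromosome V, 19177904 to 19178111, in an intron of hot-2) had 126, and peak 63 (chromosome III, 3108933 to 3109032, near Y53G8B.2) had 102. The next ones by signal were weaker. Near the synaptotagmin gene snt-6 there were 3, with 95.2, 78.7 and 68.3, and one near C08G5.6 had 98.5. Introns of Y77E11A.12, mks-1 (a cilium gene), Y54F10BM.9, Y55F3BR.2, pho-14 (an acid phosphatase gene) and snf-3 (a neurotransmitter transporter family gene) held peaks of 92.3, 80.95, 73.1, 67.7, 63.7 and 58.96. Peaks near klf-1, a Kruppel-like transcription factor gene, and bed-2 had 83.7 and 63.5.

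Of the 9 peaks with both boxes and no tRNA match at an E-value up to 1e-05, 5 had the run of thymines. The strongest was peak 5 (chromosome I, 852069 to 852398), 1221 bp from the 5' end of zfr-1, a gene for a zinc finger RNA-binding protein, with a signal of 511, 172 (rank 145) in replicate 1 and 335 (rank 166) in replicate 2. Peak 23 (chromosome X, 1939307 to 1939588, in an intron of Y59E1A.4) had 247, with 67.0 (rank 563) and 178 (rank 479). Peak 71 (chromosome II, 7042130 to 7042248, near the topoisomerase-like gene cin-4) had 93.2, with 25.7 (rank 883) and 61.6 (rank 805), and no run of thymines. It missed the limit for a tRNA match narrowly, with an E-value of 2.17e-05 to the pseudogene B0399.t12 over 34 bp.

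The heat shock element arrays formed the second kind of distal peak. Arrays held 3 to 44 elements (median 17.5, overlapping elements counted each), and 37 of the 40 belonged to 1 family of 38 peaks linked by sequence similarity spread over all 6 chromosomes. In 30 of the 40 the best self-alignment of the window was at a shift of 40 bp, where a median of 71.2% of bases matched, and only 2 of the other 251 distal peaks had that period. Their signals were moderate, from 35.7 to 172 with a median of 60.7. Peak 32 (chromosome V, 20164539 to 20164803, 519 bp from the 5' end of F19B2.5), which has 3 elements and not the 40 bp period, had 172, with 59.96 (rank 605) in replicate 1 and 112 (rank 624) in replicate 2. Peak 36 (chromosome II, 301455 to 301681, 833 bp from the 5' end of K01A2.5), with 6 elements, had 161, with 25.9 (rank 879) and 136 (rank 572). Peak 56 (chromosome III, 12001451 to 12001850, in an intron of Y56A3A.33), with 19, had 113, with 11.6 (rank 3421) and 101 (rank 652). The last of these was far lower in replicate 1 than in replicate 2.

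That difference between replicates held for the arrays as a group. Of 40 arrays, 15 were among the 1320 strongest regions of replicate 1's own list and 39 among those of replicate 2's, with median ranks of 2480 and 896.5. The tRNA-like peaks had median ranks of 1061.5 in replicate 1 and 938 in replicate 2, with 71 and 102 of 111 in the upper 1320, and peaks with neither had 951 and 945, with 102 and 125 of 140. Array windows were also the most repeated, with a median of 92.7% of bases marked as repeat or low-complexity in the reference (soft-masked) and 76.8% unique 32-mers, against 51% and 97.4% in tRNA-like windows and 27.2% and 100% in the rest. Whether read placement in repeats differed between the replicates was not tested. Few windows with an array met a peak: 57 of 723 eligible windows with an array (7.88%) met a thresholded peak. For comparison, 138 of 968 tRNA-like windows (14.3%), 90 of 1139 with a B box (7.90%), 49 of 427 with both boxes (11.5%) and 622 of all 247924 (0.251%) did.

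**Figure D3:**
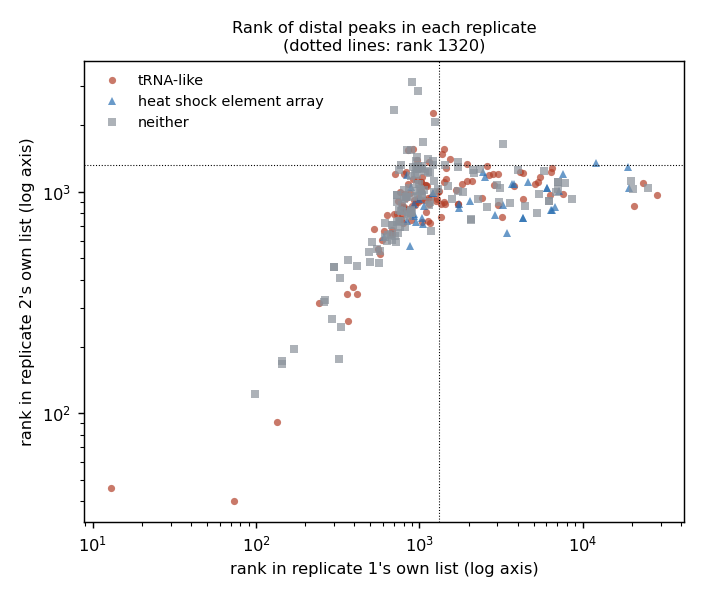
Rank of each distal peak in replicate 1's own list (horizontal, log axis) and in replicate 2's (vertical, log axis), for the 285 with a region in both; symbols mark tRNA-like, heat shock element array and other peaks, and dotted lines mark rank 1320. Of the 38 array peaks drawn, 15 lie left of the vertical line and the others spread to its right.

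Over all 291, replicate 2's own list met every distal peak and replicate 1's met 285. Median ranks were 1022 in replicate 1 and 938 in replicate 2, and 171 were in the upper 1320 of both. Ranks in the 2 replicates had a Spearman correlation of 0.54 over the 285 peaks in both lists, given as a description, since all peaks share the same pair of libraries. Of the 291, 63.6% met a distal peak of replicate 1's upper 1320 and 91.1% one of replicate 2's.

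The 140 peaks with neither kind of sequence were mixed. An exact B box was present in 25, with a median signal of 83.2, and 77 had none within 1 mismatch, with a median of 53.1. Several of the strongest distal peaks were among them. Peak 4 (chromosome X, 1837715 to 1838067, 7654 bp from the 5' end of T26C11.4 and overlapping an annotated pseudogene) had a signal of 568, with 195 (rank 99) in replicate 1 and 374 (rank 122) in replicate 2. Peak 6 (chromosome IV, 8375316 to 8375756, 911 bp from the 5' end of D2096.7) had 492, with 173 (rank 144) and 331 (rank 172). Neither of these had a B box within 1 mismatch. At the looser E-value of 0.001 both had a match, peak 4 to the tRNA pseudogene Y53G8B.t3 over 51 bp and peak 6 to the tRNA gene C28G1.t1 over 30 bp (E-value 7.59e-05). Peak 7 (chromosome X, 4453123 to 4453502, near F02E8.4), printed above with its exact B box, had 473, with 165 (rank 171) and 316 (rank 195). Peak 12 (chromosome IV, 14838081 to 14838508, in an intron of Y57G11C.22) also had an exact B box and a signal of 390.1, with 139.6 (rank 265) and 251 (rank 325).

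The remaining peaks of the upper 20 had no exact B box. Peak 8 (chromosome X, 1207940 to 1208372, near C46H3.1) had 447, with 122 (rank 323) in replicate 1 and 329 (rank 175) in replicate 2. Peak 9 (chromosome IV, 13701512 to 13701850) lay in an exon of tlp-1, a zinc finger transcription factor gene, with 415, 131 (rank 290) and 279.7 (rank 266). It was the only one of the upper 20 in an exon. Peak 10 (chromosome IV, 15693295 to 15693723, in an intron of Y105C5A.15) had 412, with 119 (rank 333) and 291 (rank 245). Peak 11 (chromosome IV, 16503609 to 16503960), in an intron of zip-7, a bZIP transcription factor gene, had 400.2, with 141 (rank 259) and 254 (rank 317). Each of these had a B box within 1 mismatch. Peak 16 (chromosome V, 3163166 to 3163503, near C36C5.14) had 332, with 121 (rank 326) and 210.0 (rank 410). Peak 18 (chromosome II, 13780628 to 13781292, in an intron of C01B9.4) had 321, with 127 (rank 301) and 188 (rank 457), and no B box within 1 mismatch. Peak 20 (chromosome IV, 15476366 to 15476699, in an intron of Y73F8A.26) had 286, with 111 (rank 363) and 174 (rank 492). All 20 ranked within the upper 1320 of both replicates' lists.

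Most distal peaks were weak within the thresholded list. Signal ran from 35.6 to 770 with a median of 59.1 and quartiles of 44.7 and 92.3, beside medians of 59.6 at promoter-proximal peaks (n = 207), 492 at snoRNA genes (n = 68) and 139.6 over all 1294 nuclear peaks. The strongest region that met the rule but not the threshold had a signal of 35.4 in the pooled list. Only 44 of the 291 remained when the list was cut to its 660 strongest peaks. Divided into 4 groups by signal, the strongest 73 distal peaks held an exact B box in 21 and an array in 8, and the weakest 72 held a B box in 17 and an array in 15, so boxes were found at all strengths.

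**Figure D4:**
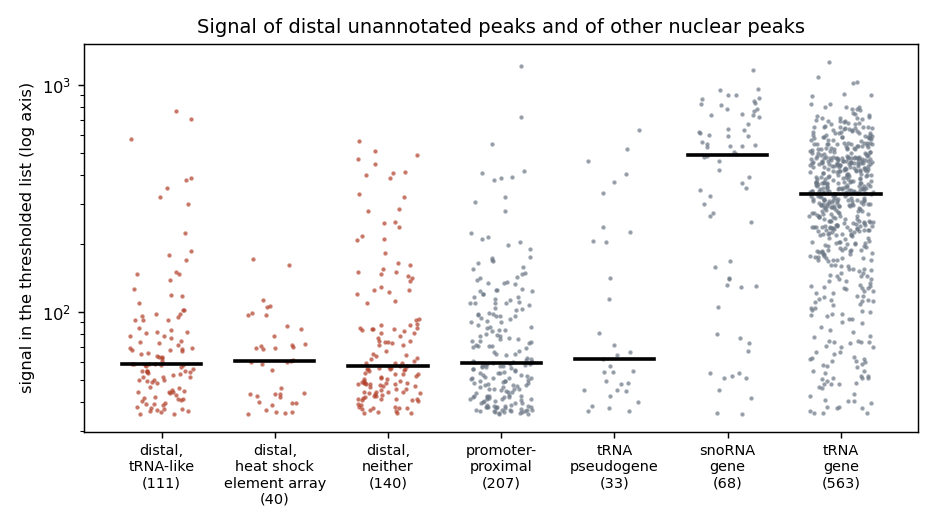
Signal in the thresholded list (log axis) of distal peaks by kind of sequence (left, red) and of promoter-proximal, tRNA pseudogene, snoRNA gene and tRNA gene peaks (right, grey); points are peaks, black lines medians and numbers in brackets the peaks per group. The 3 distal medians lie between 57.9 and 60.7, and tRNA gene peaks have a median of 330.

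By site, 100 distal peaks (34.4%, interval 28.9 to 40.1%) had the summit in an intron of a protein-coding gene, 8 in an exon and 183 between genes. Among eligible windows 34.1% were intronic by their midpoint, so the intron share was near the background. Exons held 2.75% of distal peaks and 27.4% of windows. By kind, 44 of 111 tRNA-like peaks, 17 of 40 arrays and 39 of 140 others were intronic. The median distance to the nearest 5' end was 1927 bp (from 503 to 16497), and 234 of the 291 lay over 1000 bp away. Members just inside the limit of 500 bp were at ptr-18 (503 bp, signal 53.1), F19B2.5 (519 bp, 172) and F54H12.10 (522 bp, 71.4), and peaks just outside it were at sms-3 (488 bp, 411), rtfo-1 (481 bp, 109.7) and F39F10.2 (472 bp, 97.3).

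The distal peaks lay towards the ends of the chromosomes. With each of the 6 nuclear chromosomes divided into 3 equal parts, the central part held 49 (16.8%, interval 12.7 to 21.6%), against 31.9% of eligible windows and 69 of 207 promoter-proximal peaks (33.3%). Of 10 equal bins from left to right, the outermost held 56 and 48 and bin 4, the lowest, 13. The kinds of sequence differed in this as counts. The central part held 7 of 111 tRNA-like peaks (6.31%) and 4 of 40 arrays (10%), but 38 of 140 others (27.1%). Of eligible windows, 4.65% of the tRNA-like and 13.4% of those with an array lay in the central part. By replicate 1 alone the central part held 28.5% of 312 distal peaks, and by replicate 2 alone 16.6% of 320.

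**Figure D5:**
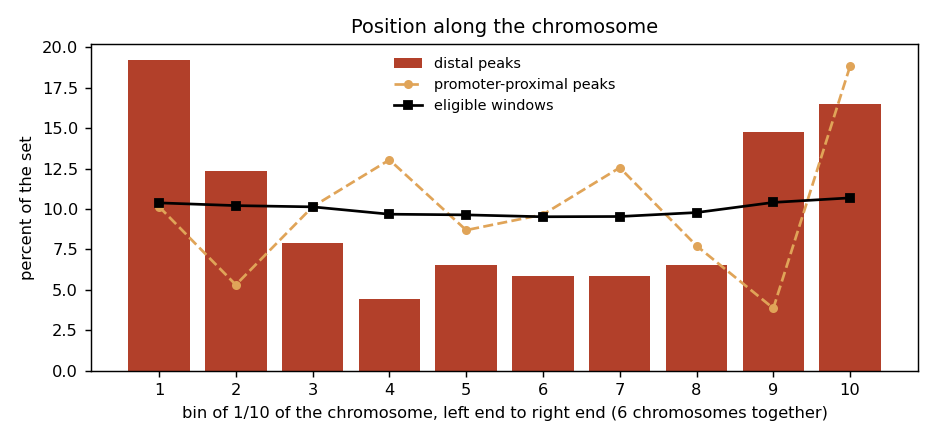
Percent of each set (vertical axis) by bin, each 1 of 10 equal parts of a chromosome from left to right end, the 6 chromosomes together; bars are the 291 distal peaks, the dashed line the 207 promoter-proximal peaks and the solid line the eligible windows. Bars are highest at the ends, 19.2% in bin 1 and 16.5% in bin 10, while windows stay between 9.52 and 10.7%.

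By chromosome, the X had the most distal peaks, 68, or 1.51 per 1000 eligible windows, and chromosome I the fewest, 34, or 0.893 per 1000. Chromosomes II to V held 44, 45, 50 and 50. The X had 20 tRNA-like peaks but only 1 array, where chromosome I had 11 arrays. Of eligible windows with an array, the X had 76 and chromosome I 84, a narrower gap than among the peaks. A family of 6 similar peaks lay on the X alone, with signals from 36.3 to 149.9. In 4 of them the nearest 5' end was that of dot-1.2 or dot-1.3, of the DOT1 histone methyltransferase family. These 4 were pairs of neighbouring summits (11870356 with 11870563, and 12304300 with 12304505), within 300 bp of each other. Each pair is thus 1 site counted through overlapping windows.

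Similarity between distal peaks went beyond these groups. Of the 291, 173 fell into 28 families that aligned over at least 100 bp at an E-value up to 1e-10, of 38, 32, 24, 14 and fewer members, and 118 stood alone. Overlapping windows were not excluded, so neighbouring summits could be linked by the bases they share. Peaks 18 and 51, in the same interval, formed such a family. The family of 14 had both boxes in 11. Repeated sequence, defined as under 50% of 32-mers occurring once in the genome, made up 49 of the 291 windows (16.8%, interval 12.7 to 21.6%), against 8.72% of eligible windows, while 131 had every 32-mer unique. The 660 strongest peaks turned this round, with 0 of 44 distal peaks repeated. By 50-mers the share was 7.56%, against 6.82% of windows. By replicate 1 alone the repeated share was 6.09%, and by replicate 2 alone 17.8%. Peaks that share copies of 1 sequence are not independent of each other. The summits were also close in places, since the 291 reduced to 277 sites when summits within 300 bp were joined. Although chosen for having no small RNA gene nearby, 16 overlapped another annotated gene, 10 of them a pseudogene, 4 a piRNA gene and 2 a long noncoding RNA gene.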

How the data were processed

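Chromatin immunoprecipitation with an antibody named for RPC-1 was sequenced from 2 biological replicates of whole young adult N2 worms, 1 group with no comparison between conditions. Per the submitters' list of files, the authors called a relaxed peak list on each replicate and on the pooled replicates, each with a control library, and kept in the thresholded list the peaks that passed a limit on the irreproducible discovery rate. The aligner, caller and read length were not given in the sources used here. The signal value of each peak is as deposited by the authors, and since its scale is not the same in every list it was compared only within one. Read depth is unknown.

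Distances ran from the summit to the 5' end of every protein-coding transcript or gene, and from the peak interval to small RNA genes, in the RefSeq annotation of WBcel235 (WormBase release 298), which is ce11. Boxes, heat shock elements, 32-mers and BLAST matches (blastn, word size 7) were taken in 300 bp at the summit. The same was done in end-to-end windows that met the same rule. For these the distance to 5' ends ran from the midpoint, and the conditions on small RNA and ncRNA genes applied to the whole window. A peak was assigned a replicate's region by overlap. Leaving out a replicate meant taking the 1320 strongest regions of the other one's own list. Named peaks were, by rule, the 20 strongest, up to 20 with both boxes and the 3 on each side of the distance limit, and others were chosen after their values were seen. The members, lists and named kinds of sequence were chosen with earlier results of these data known. With 1 group, samples could not be tested against each other, and no test was run over regions. The code was tested on simulated data. The lists on build ce10 were left out, since coordinates were not converted. BLAST+ 2.17.0, NetworkX 3.6.1, Matplotlib 3.10.9, pandas 2.3.3, SciPy 1.17.1, NumPy 2.4.6 and Python 3.11.15 were used.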

Additional observations from a re-analysis of the deposited data

How the results depend on the processing

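Of the recomputed values, 74 stayed within the main value's interval, spread or, for counts, 1.5 times, and 20 moved beyond it. Leaving out 1 replicate moved the number of distal peaks to between 312 and 320, the median signal to between 20.9 and 40.6 (on other scales), the central part of the chromosome to between 16.6 and 28.5%, the B box to between 15.7 and 25.3%, both boxes to between 9.62 and 15.9%, repeated sequence to between 6.09 and 17.8%, tRNA-like sequence to between 23.7 and 37.2% and arrays to between 4.81 and 16.6%, with replicate 1's own list at the far end for every share. The intron share kept within its interval in all 10 alternatives. Among the 660 strongest peaks 44 distal peaks remained, with a median signal of 248, both boxes in 11.4%, repeated sequence in 0% (8.72% of windows) and arrays in 4.55%. Other definitions gave 27.8% in the central 50% of the chromosome, 58.8% with 1 mismatch in the B box, 7.56% repeated by 50-mers (6.82% of windows) and 38.8% by soft-masking of at least 50% of the window (28.02% of windows). Added after seeing the data, E-values up to 0.001 and 1e-10 gave 45.4 and 30.6% tRNA-like, and at least 1 element gave 18.6% with an array (2.35% of windows). Distances of 250 and 1000 bp gave 357 and 234 peaks. The causes were not tested. No paired analysis was possible because there is 1 group. Unknown depth and uncertain placement of reads in repeats limit what the lists can show.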
